A study of Mus musculus with 12 samples.

Results

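Chondrocytes labelled as Phlpp1 knockout were compared directly with chondrocytes labelled as Phlpp2 knockout. The comparison ran gene by gene, in the 16565 of 49315 listed genes that had enough counts to be tested. The 6 libraries compared, 3 of each knockout, are part of a series of 12 that also holds 3 wild-type (WT) libraries and 3 of the Phlpp1/2 double knockout. The cells were primary chondrocytes of the epiphysis, the cartilage end of a growing bone, taken at 5 days of age from mice labelled female. They were freed from the matrix with collagenase II, frozen until enough mice of each genotype were in hand, thawed, and kept overnight in medium with serum before RNA extraction. The genotypes given are WT, Phlpp1 KO, Phlpp2 KO and Phlpp1/2 KO, and no further allele, Cre driver or drug is named for any group. Which exons were removed is not stated. The design text names 3 mice per genotype and no pairing, and whether each library was 1 of these mice or a pool is not stated. The p-values therefore measure the spread between these libraries. The strain reads C57BL6 for WT, for Phlpp1 KO and for Phlpp2 KO replicates 1 and 2. It carries other final digits in Phlpp2 KO replicate 3 and in all 3 double knockout samples.

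PHLPP1 and PHLPP2 are closely related phosphatases of the PP2C family, with a PH domain and a long row of leucine-rich repeats. Each removes phosphate from the hydrophobic motif of AKT, and they also act on PKC isoforms and S6K, so that their loss can prolong growth factor signalling. In cartilage, AKT and ERK activity bear on proliferation and on matrix synthesis of growth plate chondrocytes, and FOXO transcription factors are switched off when AKT phosphorylates them. A direct contrast of the single knockouts asks which transcripts depend on which of the related enzymes is missing.

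Library totals in the 6 libraries ran from 25555599 to 30415012 counts. Levels are given in CPM, which divides counts by library sizes scaled by TMM, and log2 fold changes are Phlpp1 knockout minus Phlpp2 knockout, so negative values are lower without Phlpp1. Across genes, which are not independent replicates, Pearson's r of log2 CPM was 0.990 to 0.993 for the 3 pairs of Phlpp1 knockouts, 0.990 to 0.992 for the 3 pairs of Phlpp2 knockouts and 0.988 to 0.991 for the 9 mixed pairs. In a principal component analysis of the 6 libraries alone, component 1 held 30.04% of the variance and placed the Phlpp1 knockouts at −21.99, −23.1 and −7.22 and the Phlpp2 knockouts at 6.55, 26.3 and 19.5. Cartilage markers were abundant in both groups: Col2a1, the main cartilage collagen, was 32510 CPM (SD 4922, n = 3) without Phlpp1 and 29510 CPM (SD 3509, n = 3) without Phlpp2. Libraries stood apart in both groups. Phlpp1 KO 1 had 13.9 CPM of Xist, the RNA that silences an X chromosome in female cells, against 443 to 587 CPM in the other 5. Of 6 listed genes of X inactivation and the Y chromosome, 4 were at 0 counts in Phlpp1 KO 1. The same number was at 0 in each other compared library except Phlpp2 KO 3, where 0 of the 6 were, so the listed Y genes had reads there. Outside the comparison, WT 2 also had 0 of the 6 at 0, and the double knockouts had 1, 2 and 1. Phlpp1/2 KO 1 was the second library of low Xist in the fit. There the 6 genes summed to 112 CPM, against 387 and 569 CPM in its group. Phlpp2 KO 1 had the lowest summed level of SOX genes (464 CPM against 733 and 697 CPM in its group) and the highest of osteoblast genes (695 CPM against 330 and 513 CPM). Skeletal muscle genes summed to 13.8, 50.4 and 65.1 CPM in the Phlpp1 knockouts and to 16.1, 22.5 and 10.2 CPM in the Phlpp2 knockouts. The 7 erythroid markers in the table were at most 0.572 CPM in sum in any of the 6.

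Few genes passed the test between the knockouts. By edgeR's quasi-likelihood test, adjusted by Benjamini-Hochberg over the 16565 genes, 25 passed an adjusted p of 0.05, which is 0.151% of them. Of these, 12 were higher without Phlpp1 (0.0724%) and 13 were lower (0.0785%), 11 of the 25 changed at least 2-fold, and 21 are protein-coding. In all 25 the 3 libraries of one knockout lay entirely above those of the other, as they did for 2339 of all tested genes (14.1%). An unadjusted p under 0.05 was reached by 1730 of the 16565 genes. The number of calls was sensitive to the tool and to 1 library. DESeq2 called 177 of the 14882 genes to which it gave an adjusted p, and limma-voom called 28 of 16565. These totals are the background for the counts of list members given below. With Phlpp2 KO 1 left out, edgeR called 207 genes. It called 13 when Phlpp1 KO 1, the library of low Xist, was left out, and 8 when Phlpp1 KO 2 was left out. Phlpp1, Wdfy1, D2hgdh, Gm29337, Dhrs7 and Snapc1 were called in each of the 6 refits that left out 1 library.

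**Figure D1:**
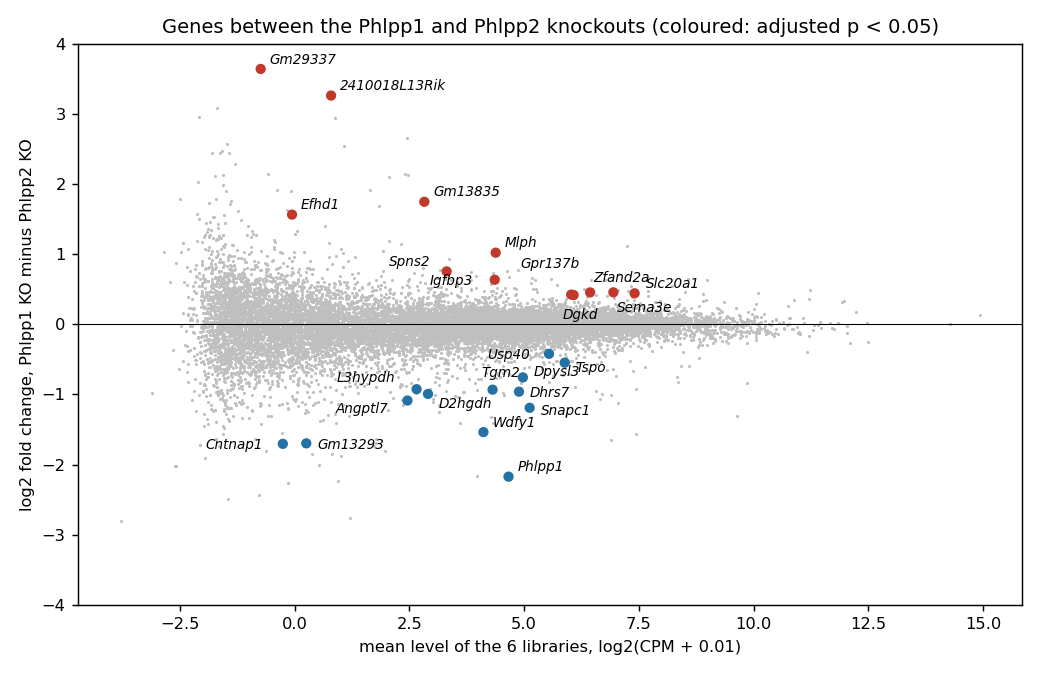
Log2 fold change (Phlpp1 knockout minus Phlpp2 knockout) of each tested gene against its mean level in the 6 libraries, log2(CPM + 0.01). The 12 genes in red were called higher without Phlpp1 and the 13 in blue lower, at adjusted p under 0.05, and 6 uncalled genes lie beyond the plotted range of 4.

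The targeted genes come first, since they check the labels. Phlpp1 (ENSMUSG00000044340, chromosome 1, 106171752 to 106394250, mm10) measured 9.25, 9.46 and 8.78 CPM in the Phlpp1 knockouts and 44.6, 37.9 and 41.6 CPM in the Phlpp2 knockouts. The groups were far apart, a difference of −2.17 (SE 0.10, adjusted p = 1.16e-07), and the Phlpp2 knockout lay on the WT level of 39.7 CPM (SD 4.35, n = 3). Phlpp2 (ENSMUSG00000031732, chromosome 8, 109868542 to 109944671) measured 24.9, 22.8 and 24.9 CPM in the Phlpp1 knockouts and 17.1, 16.8 and 19.4 CPM in the Phlpp2 knockouts. These groups did not overlap either, but the difference of 0.45 (SE 0.09) did not pass the test (adjusted p = 0.0802), and the Phlpp2 level in the libraries labelled as Phlpp2 knockouts was 0.734 times that in the Phlpp1 knockouts. WT had 25.5 CPM of Phlpp2 (SD 2.85, n = 3) and the double knockout 10.9 CPM (SD 0.611, n = 3), so the Phlpp2 knockout libraries lay between them. Against WT, Phlpp2 in the Phlpp2 knockout differed by −0.52 (SE 0.09, adjusted p = 0.0607 by the same test) and did not pass either. Each value counts reads anywhere in the gene, also outside whatever part was removed. Directions below therefore rest on the labels for the libraries labelled Phlpp2 KO.

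Chromosome 1, which carries Phlpp1, held 8 of the 25 called genes (0.777% of its 1030 tested genes). Within 20 Mb of Phlpp1, 6 of 146 tested genes were called (4.11%), 4 higher and 2 lower without Phlpp1. In the same window DESeq2 called 11 and limma-voom 7. There edgeR called 4 with the replicate number in the model and 3 with the 6 libraries alone. Within 10 Mb, edgeR and limma-voom called none of 31, of which 5 had an unadjusted p under 0.05, and DESeq2 called 2. Within 20 Mb of Phlpp2, edgeR and limma-voom called none of 344 tested genes, of which 42 had an unadjusted p under 0.05, and DESeq2 called 2. The called neighbours all lay on 1 side of Phlpp1, between −26.4 and −12.3 Mb from it.

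Wdfy1 encodes a protein of early endosomes with WD repeats and a FYVE domain (chromosome 1, 79702262 to 79776143, 26.4 Mb from Phlpp1). It measured 8.04, 9.30 and 9.24 CPM without Phlpp1 and 28.3, 24.6 and 24.2 CPM without Phlpp2. It was 2.90-fold higher in the Phlpp2 knockout (log2 −1.54, SE 0.13, adjusted p = 0.000127). WT libraries, at 15.8, 15.6 and 21.5 CPM, lay between the knockouts, above every Phlpp1 knockout and below every Phlpp2 knockout. D2hgdh, the mitochondrial enzyme that oxidises D-2-hydroxyglutarate, measured 5.15, 5.22 and 4.62 CPM without Phlpp1 and 10.2, 9.23 and 10.5 CPM without Phlpp2 (−0.99, SE 0.11, adjusted p = 0.00191). Here the Phlpp2 knockout overlapped WT (9.69 to 11.8 CPM) and all Phlpp1 knockouts were low. Part of D2hgdh is 99.6% identical to Gm18666 over 567 bases, and how reads matching both were counted is not given in the sources used here.

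Mlph, melanophilin, which tethers RAB27A on organelles to myosin Va, went the other way: 26.8, 28.6 and 28.3 CPM without Phlpp1 against 12.7, 11.8 and 16.7 CPM without Phlpp2. That is 2.03-fold higher in the Phlpp1 knockout (log2 1.02, SE 0.13, adjusted p = 0.00606). Gm29337, a long intergenic RNA gene 17.3 Mb from Phlpp1, showed the largest called difference, with 1.31, 0.986 and 0.979 CPM without Phlpp1 and no more than 0.153 CPM in any Phlpp2 knockout (3.64, SE 0.42, adjusted p = 0.00250). Efhd1, which encodes a calcium-binding protein of mitochondria, was 1.61, 1.28 and 1.37 CPM without Phlpp1 and 0.687, 0.331 and 0.422 CPM without Phlpp2 (1.57, SE 0.26, adjusted p = 0.0318). Its groups were separate, but it was called in only 1 of the 6 refits without a library. Dgkd, a diacylglycerol kinase, was higher without Phlpp1 (0.42, SE 0.06, adjusted p = 0.00868) and its neighbour Usp40, a ubiquitin protease, was lower (−0.42, SE 0.07, adjusted p = 0.0364). Exons of these adjoining genes overlap on opposite strands, and the strand setting of the counting is not given, so their shared reads cannot be assigned. Glrp1, chosen after its values were seen, lies among them at −17.7 Mb. It had 0 counts in all 3 Phlpp1 knockouts and 8, 9 and 12 counts in the Phlpp2 knockouts, and it did not pass the test (adjusted p = 0.0729).

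**Figure D2:**
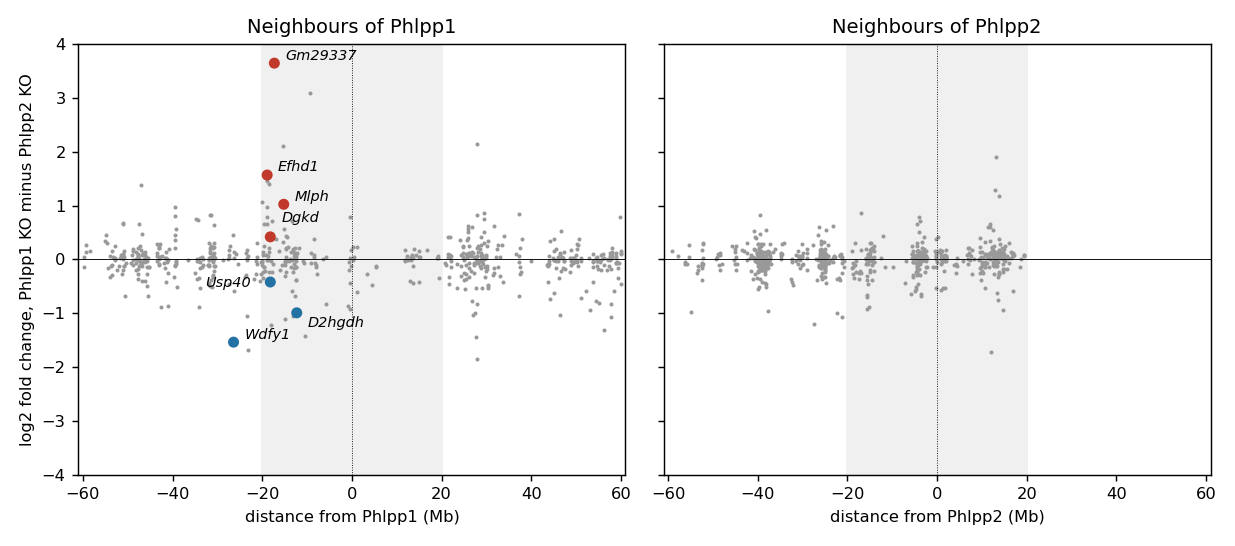
Log2 fold change (Phlpp1 knockout minus Phlpp2 knockout) of tested genes against distance in Mb from Phlpp1 (left) and Phlpp2 (right), with the 20 Mb flanks shaded and called genes coloured and named. The called neighbours of Phlpp1 span −26.4 to −12.3 Mb, and no gene near Phlpp2 was called; Glrp1 lies below the plotted range.

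A second group of neighbours lay on chromosome 12, which carries neither targeted gene. L3hypdh (72073428 to 72085439), Dhrs7 (72650353 to 72664909) and Snapc1 (73964481 to 73988966) were all lower without Phlpp1, and chromosome 12 held 4 called genes of 558 tested (0.717%). Their RefSeq promoter windows are shown because the 3 genes moved together; each runs 5′ to 3′ from 250 bases before the RefSeq start, with the 50 bases from the start onwards in capitals (build GRCm38.p6, chr12:72085264-72085563 and chr12:72664779-72665078 on the minus strand, chr12:73964247-73964546 on the plus strand).
L3hypdh: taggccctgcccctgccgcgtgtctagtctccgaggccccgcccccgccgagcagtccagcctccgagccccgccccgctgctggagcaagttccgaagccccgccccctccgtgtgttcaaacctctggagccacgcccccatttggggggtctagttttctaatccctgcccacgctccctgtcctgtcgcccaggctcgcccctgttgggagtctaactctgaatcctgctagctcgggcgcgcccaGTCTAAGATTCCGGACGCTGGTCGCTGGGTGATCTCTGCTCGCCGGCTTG
Dhrs7: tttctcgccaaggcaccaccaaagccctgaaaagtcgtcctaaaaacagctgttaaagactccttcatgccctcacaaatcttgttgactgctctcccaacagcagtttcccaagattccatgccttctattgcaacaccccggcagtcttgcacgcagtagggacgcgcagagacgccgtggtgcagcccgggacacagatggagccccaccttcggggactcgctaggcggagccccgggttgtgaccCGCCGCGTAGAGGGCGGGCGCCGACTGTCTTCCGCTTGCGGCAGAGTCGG
Snapc1: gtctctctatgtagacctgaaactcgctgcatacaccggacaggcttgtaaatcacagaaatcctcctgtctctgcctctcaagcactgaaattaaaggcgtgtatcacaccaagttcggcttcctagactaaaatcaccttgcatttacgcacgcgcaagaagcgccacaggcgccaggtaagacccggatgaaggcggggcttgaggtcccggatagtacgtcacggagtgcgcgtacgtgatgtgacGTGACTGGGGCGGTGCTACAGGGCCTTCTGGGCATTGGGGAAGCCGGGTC
None of the 3 windows held any of the motifs searched, which are spelled out further on.

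Dhrs7, a short-chain dehydrogenase/reductase, measured 20.4, 19.0 and 21.0 CPM without Phlpp1 and 34.5, 41.6 and 41.1 CPM without Phlpp2 (−0.96, SE 0.10, adjusted p = 0.00191). Snapc1, a subunit of the complex that starts transcription of small nuclear RNA genes, measured 21.8, 17.9 and 23.9 CPM against 45.1, 50.9 and 49.0 CPM (−1.19, SE 0.13, adjusted p = 0.00234). L3hypdh, the trans-3-hydroxy-L-proline dehydratase, measured 3.90, 4.21 and 4.94 CPM against 7.92, 8.17 and 8.63 CPM (−0.92, SE 0.13, adjusted p = 0.0121). In each of the 3 genes every Phlpp1 knockout was below every Phlpp2 knockout and below every WT library, whose ranges were 32.4 to 42.5 CPM for Dhrs7, 34.0 to 44.6 CPM for Snapc1 and 6.88 to 7.46 CPM for L3hypdh. Double knockout libraries, at 28.2 to 30.3 CPM of Dhrs7, lay between the single knockouts. Other genes of the same region, chosen after their values were seen, had values in both directions and did not pass the test. Jkamp, head to head with L3hypdh, was 29.3 CPM without Phlpp1 and 37.4 CPM without Phlpp2 (−0.35, SE 0.07, adjusted p = 0.0739). Slc38a6, which lies between Dhrs7 and Snapc1, was higher in value without Phlpp1 (0.67, SE 0.13, adjusted p = 0.0729), and so was Frmd6 (0.41, SE 0.07, adjusted p = 0.0514).

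The fourth called gene of chromosome 12, 2410018L13Rik (22953997 to 23010284), is a long intergenic RNA gene, and it is the one called gene for which the Phlpp2 knockout, and not the Phlpp1 knockout, passed the test against WT. It measured 3.06, 2.99 and 3.33 CPM without Phlpp1, 3.03, 2.88 and 3.25 CPM in WT, and 0.289, 0.364 and 0.307 CPM without Phlpp2 (3.26, SE 0.52, adjusted p = 0.0364). It was called in 1 of the 6 fits that left out 1 library, and neither by limma-voom (adjusted p = 0.0920) nor with a replicate block (adjusted p = 0.0695). The double knockouts were scattered at 2.93, 0.459 and 1.77 CPM. Transcripts of 29 other genes carry stretches at least 95% identical to it, so its reads may be shared among copies. Close by, 1700030C10Rik, named after its values were seen, had 26, 67 and 33 counts without Phlpp1 and 0, 0 and 1 without Phlpp2 (adjusted p = 0.0729).

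**Figure D3:**
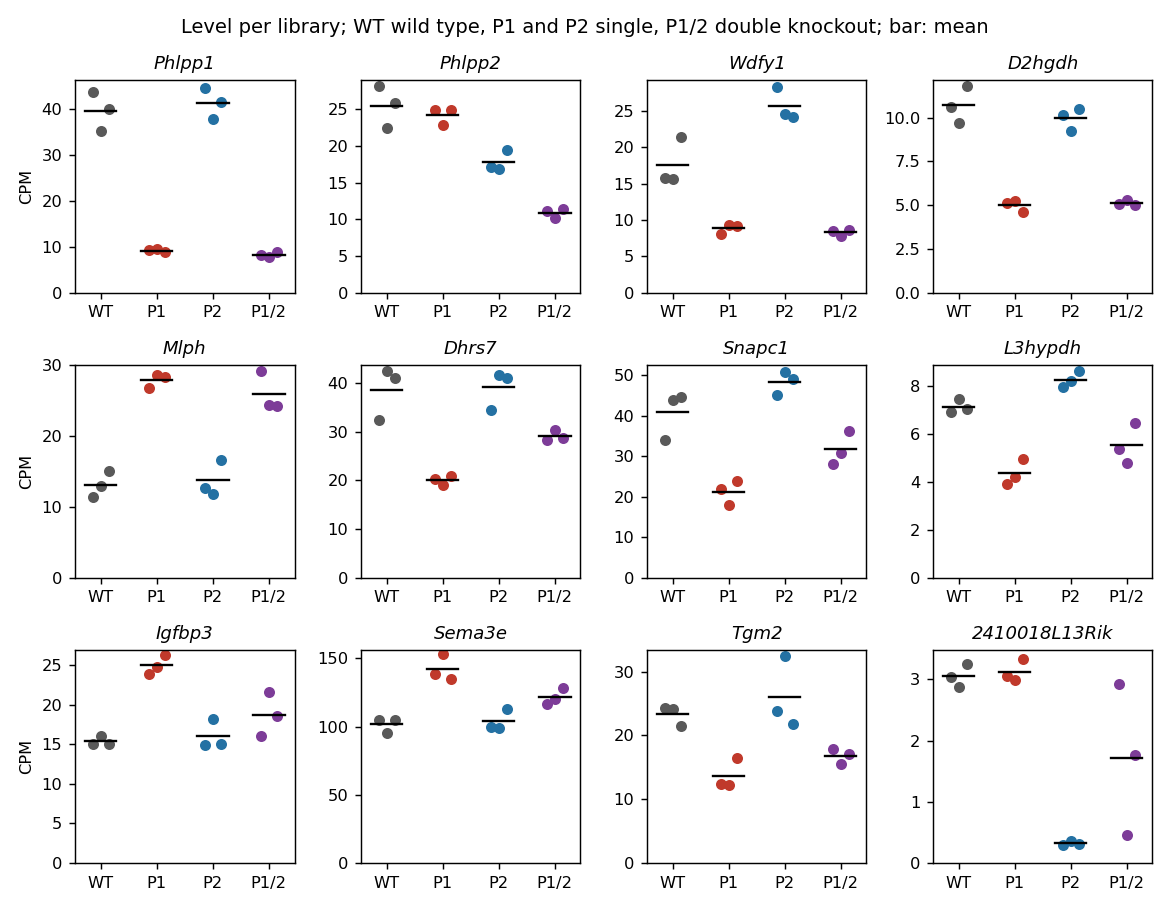
CPM of 12 genes in each library, by genotype (WT, P1 for Phlpp1 knockout, P2 for Phlpp2 knockout, P1/2 for the double knockout); points are libraries and bars are means of 3. Wdfy1, D2hgdh, Dhrs7, Snapc1, L3hypdh and Tgm2 are lower in P1 than in P2 without overlap, and Mlph, Igfbp3, Sema3e and 2410018L13Rik are higher.

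Outside these neighbourhoods, several called genes encode secreted or surface proteins. Igfbp3, which binds insulin-like growth factors outside the cell, measured 23.8, 24.8 and 26.3 CPM without Phlpp1 and 14.9 to 18.2 CPM without Phlpp2 (0.64, SE 0.11, adjusted p = 0.0415). Sema3e, a secreted semaphorin that binds the receptor plexin D1, measured 139, 153 and 135 CPM against 99.6, 99.0 and 113 CPM (0.46, SE 0.07, adjusted p = 0.0237). All Phlpp1 knockouts were above all Phlpp2 and WT libraries for both genes. Angptl7, a secreted angiopoietin-like protein, was 4.11, 2.79 and 3.64 CPM without Phlpp1 and 8.43, 7.15 and 6.79 CPM without Phlpp2 (−1.09, SE 0.18, adjusted p = 0.0381), and was called in 1 of the 6 fits that left out 1 library. Igfbp3 was called in 2 of these fits, and Sema3e and Tgm2 in 3. Tgm2, transglutaminase 2, which crosslinks proteins of the matrix, was 12.3, 12.2 and 16.5 CPM against 23.8, 32.4 and 21.9 CPM (−0.93, SE 0.15, adjusted p = 0.0318). Cntnap1, a contactin-associated membrane protein best known from the paranodes of myelinated axons, was low everywhere, at 0.370 to 0.394 CPM without Phlpp1 and 1.12 to 1.41 CPM without Phlpp2 (adjusted p = 0.00842). Exons of Tgm2, Cntnap1, Wdfy1, Efhd1, Slc20a1, Spns2 and Tspo overlap genes on the other strand, and those of Snapc1 overlap Gm49321 on its own strand, so shared reads may be counted for either gene.

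Transporters and intracellular proteins made up the rest. Slc20a1, the sodium-dependent phosphate carrier PiT-1, measured 186, 205 and 195 CPM without Phlpp1 and 150, 128 and 154 CPM without Phlpp2 (0.44, SE 0.07, adjusted p = 0.0316). Spns2, which exports sphingosine-1-phosphate, measured 11.6, 14.5 and 11.2 CPM against 7.31, 7.48 and 7.36 CPM (0.76, SE 0.11, adjusted p = 0.0155). Zfand2a, an arsenite-inducible zinc finger protein of the proteasome, measured 98.4, 105 and 97.2 CPM against 71.7, 76.6 and 70.8 CPM (0.46, SE 0.07, adjusted p = 0.0124). These 3 genes were higher in every Phlpp1 knockout than in any Phlpp2 knockout. Gpr137b, a membrane protein of lysosomes, was 1.34-fold higher without Phlpp1 (adjusted p = 0.0435), and it is 97.4% identical to the pseudogene Gpr137b-ps over 1966 bases. Tspo, a protein of the outer mitochondrial membrane, measured 42.9, 47.7 and 53.4 CPM against 66.3, 78.0 and 65.8 CPM (−0.55, SE 0.10, adjusted p = 0.0487). Dpysl3, a collapsin response mediator protein of the cytoskeleton, measured 21.0, 21.7 and 27.3 CPM against 38.8, 43.3 and 36.1 CPM (−0.76, SE 0.11, adjusted p = 0.0185), so that both were lower without Phlpp1 in all 3 libraries. The predicted genes Gm13835, a pseudogene identical to Psma3 over 685 bases (1.75, SE 0.23, adjusted p = 0.00868), and Gm13293 (−1.70, SE 0.29, adjusted p = 0.0440) complete the 25.

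Promoter windows of the same kind were found in the RefSeq table for 17 of the 25 called genes, as 18 windows. They were searched on both strands for a FOXO site (TGTTTAC), a CRE (TGACGTCA), an AP-1 site (TGANTCA), an E-box (CACGTG) and an EGR1 site (GCGTGGGCG), none of which overlap here. The E-box was in 3 of the 18 windows (16.7%), against 7.15% of all 32851 windows, the CRE in 1 (5.56% against 1.79%), and the FOXO, AP-1 and EGR1 sites in none (3.65%, 7.81% and 0.612% of all windows). The 4 windows with a match, all of genes higher without Phlpp1, are shown with the matched letters in capitals (GRCm38.p6, plus strand chr1:90914850-90915149, chr5:14025026-14025325 and chr2:129198523-129198822 with the E-box, minus strand chr5:139484442-139484741 with the CRE).
Mlph: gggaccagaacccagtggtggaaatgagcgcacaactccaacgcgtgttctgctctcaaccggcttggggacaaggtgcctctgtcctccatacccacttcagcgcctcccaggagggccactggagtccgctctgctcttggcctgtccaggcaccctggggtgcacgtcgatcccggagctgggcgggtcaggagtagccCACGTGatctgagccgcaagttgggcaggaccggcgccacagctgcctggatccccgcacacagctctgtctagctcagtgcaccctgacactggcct
Sema3e: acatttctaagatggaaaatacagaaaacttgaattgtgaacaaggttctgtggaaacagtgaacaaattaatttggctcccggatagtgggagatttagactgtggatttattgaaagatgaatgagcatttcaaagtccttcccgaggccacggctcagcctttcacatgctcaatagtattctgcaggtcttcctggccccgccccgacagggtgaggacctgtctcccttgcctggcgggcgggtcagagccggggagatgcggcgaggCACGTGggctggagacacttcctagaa
Slc20a1: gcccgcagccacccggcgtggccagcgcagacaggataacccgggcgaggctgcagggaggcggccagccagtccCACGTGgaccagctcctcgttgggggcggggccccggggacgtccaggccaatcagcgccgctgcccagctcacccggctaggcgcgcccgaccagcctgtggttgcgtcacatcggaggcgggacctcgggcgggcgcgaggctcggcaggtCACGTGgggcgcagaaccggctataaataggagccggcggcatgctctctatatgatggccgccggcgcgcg
Zfand2a: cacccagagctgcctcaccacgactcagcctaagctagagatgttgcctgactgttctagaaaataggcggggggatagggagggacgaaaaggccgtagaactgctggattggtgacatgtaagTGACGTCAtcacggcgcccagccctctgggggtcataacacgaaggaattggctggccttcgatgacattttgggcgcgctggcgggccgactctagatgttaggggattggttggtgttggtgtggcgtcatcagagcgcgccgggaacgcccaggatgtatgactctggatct
A match describes the letters of these windows and says nothing of binding.

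Set beside the same WT libraries, each called gene can be placed by which knockout moved; both contrasts use the same WT samples, so they are given side by side. In WT contrasts by the same fit, 89 genes were called for the Phlpp1 knockout (0.537%) and 20 for the Phlpp2 knockout (0.121%). Mlph differed from WT by 1.08 in the Phlpp1 knockout (adjusted p = 0.00208) and by 0.06 in the Phlpp2 knockout (adjusted p = 0.882). Sema3e differed by 0.49 (adjusted p = 0.00993) and 0.03 (adjusted p = 0.888), and Igfbp3 by 0.70 (adjusted p = 0.0157) and 0.06 (adjusted p = 0.848). Dpysl3 differed by −0.73 (adjusted p = 0.0153) and 0.02 (adjusted p = 0.947). In these 4 genes the Phlpp2 knockout value was close to 0 and only the Phlpp1 knockout passed. The double knockouts, also labelled as lacking Phlpp1, did not all share its level. They measured 16.04, 21.57 and 18.61 CPM of Igfbp3 and 117, 120 and 129 CPM of Sema3e, below every Phlpp1 knockout and above every WT library. Dpysl3 measured 32.24, 27.32 and 30.21 CPM there and Mlph 29.15, 24.41 and 24.25 CPM, both overlapping the Phlpp1 knockouts. Of the 4 genes, Mlph lies at −15.2 Mb from Phlpp1. The part of sequence differences near Phlpp1 in the values of its called neighbours was not tested. A different picture came from Wdfy1, at −0.99 (adjusted p = 0.00315) and 0.54 (adjusted p = 0.149), and from Zfand2a, at 0.18 (adjusted p = 0.153) and −0.28 (adjusted p = 0.177), where the values lay on opposite sides of WT. Neither WT contrast passed for Zfand2a, Spns2, Gpr137b, Angptl7, Cntnap1, Usp40, Tspo or Gm13293. 2410018L13Rik differed by 0.03 (adjusted p = 0.971) in the Phlpp1 knockout and by −3.23 (adjusted p = 0.0496) in the Phlpp2 knockout.

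**Figure D4:**
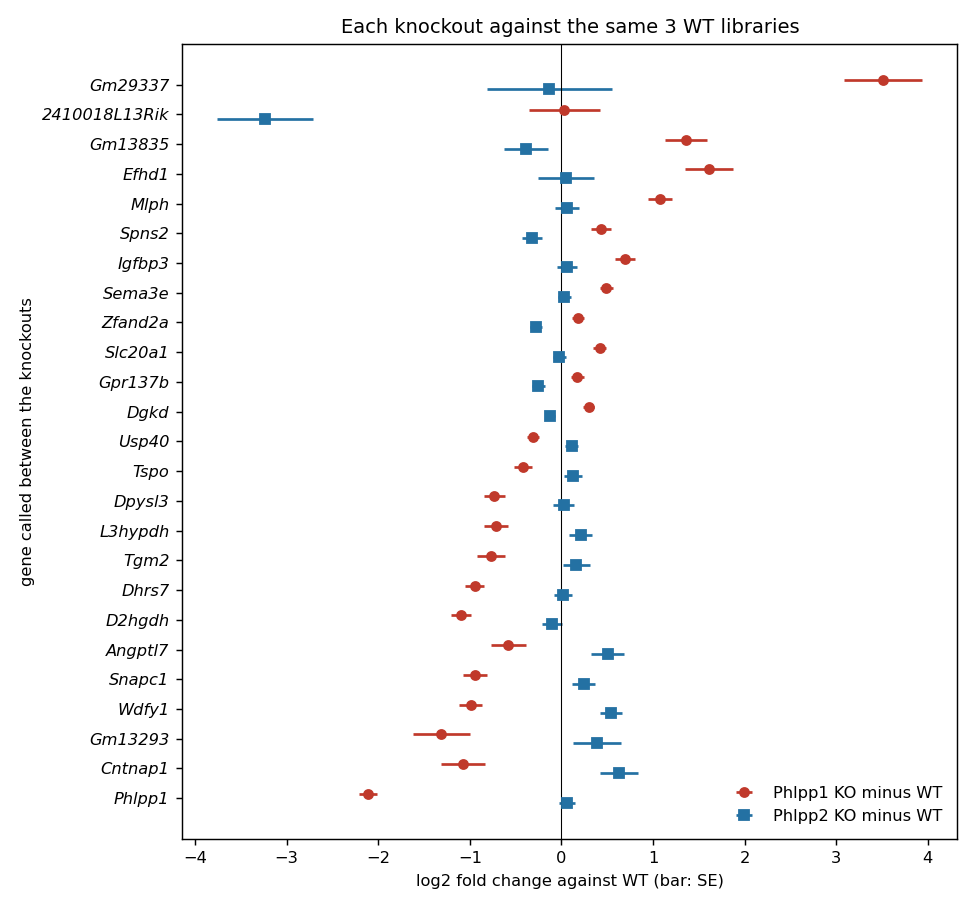
Log2 fold change against the 3 WT libraries of the 25 genes called between the knockouts, for the Phlpp1 knockout (red circles) and the Phlpp2 knockout (blue squares), with bars of 1 SE. Among the blue squares, 2410018L13Rik lies farthest from 0, at −3.23, and the blue square of Mlph, at 0.06, is an example of one near 0.

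Few genes of the pathways around the phosphatases passed the test. In the list of PHLPP, AKT and AGC kinase genes, 31 were tested and Phlpp1 was the only member called by edgeR; DESeq2 called Phlpp2 too. Of the rest, Tsc1, a brake on mTORC1, was 0.14 higher (adjusted p = 0.335), and the list's median was 0.00067, beside 0.00085 for all tested genes. None of the 26 FOXO factors and targets was called by edgeR, DESeq2 or limma-voom, and 2 had an unadjusted p under 0.05. Foxo4, a FOXO factor itself, measured 83.7, 82.8 and 75.0 CPM without Phlpp1 and 61.1, 64.4 and 68.9 CPM without Phlpp2, without overlap but short of the test (0.31, SE 0.08, adjusted p = 0.205). None of 24 FGF and ERK feedback genes was called by any of the 3 tools (4 with an unadjusted p under 0.05), and their median was 0.05.

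Immediate early genes, which growth factors switch on within minutes, had mostly positive values, that is, higher without Phlpp1. Of 22 tested, 15 had positive values, none was called by edgeR or limma-voom, and DESeq2 called 2 as higher. An unadjusted p under 0.05 was reached by 5, of which 3 were higher and 2 lower. The list summed to 1142, 1225 and 1271 CPM without Phlpp1 and 1204, 1381 and 1120 CPM without Phlpp2, with overlap. Arc, which encodes a cytoskeletal protein of neurons, measured 14.8, 15.6 and 9.75 CPM without Phlpp1 and 7.96, 6.68 and 6.48 CPM without Phlpp2 (0.93, SE 0.19, adjusted p = 0.0729). Fosb, a subunit of AP-1, measured 4.38, 4.73 and 4.54 CPM against 2.71, 3.01 and 2.72 CPM (0.69, SE 0.13, adjusted p = 0.0724). Neither gene overlapped between the groups. Of the 22 members, 4 were higher without Phlpp1 without overlap and 0 were lower, beside 7.35% and 6.77% of all tested genes.

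Cartilage genes gave no call by edgeR. Among 22 matrix genes 3 had an unadjusted p under 0.05 and DESeq2 called 1, as lower, and limma-voom none; the median was 0.08 and it turned to −0.14 when Phlpp1 KO 1 was left out. Acan, the main proteoglycan, was 4325 CPM (SD 389, n = 3) without Phlpp1 and 3458 CPM (SD 468, n = 3) without Phlpp2 (0.32, SE 0.13, adjusted p = 0.407). Prelp, a small leucine-rich proteoglycan, measured 73.0, 48.8 and 85.6 CPM against 86.0, 168 and 160 CPM (−0.996, SE 0.25, adjusted p = 0.208). Sox9, the master regulator of chondrocytes, was 319 and 333 CPM (adjusted p = 0.944).

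Genes of chondrocyte hypertrophy and mineralisation had lower values without Phlpp1 in 14 of 18 tested, with a median of −0.40, and −0.59 without Phlpp2 KO 1. The 20 listed summed to 5824, 6321 and 6476 CPM without Phlpp1 and 5706, 7519 and 8276 CPM without Phlpp2, with overlap. None was called by edgeR or limma-voom, 5 had an unadjusted p under 0.05, and DESeq2 called 1. Mmp13, the collagenase of hypertrophic cartilage, measured 87.9, 126 and 144 CPM without Phlpp1 and 157, 280 and 241 CPM without Phlpp2 (−0.92, SE 0.22, adjusted p = 0.182). Panx3, a channel protein of maturing chondrocytes, gave −0.78 (SE 0.26, adjusted p = 0.334). Runx2, which drives hypertrophy, gave −0.31 (SE 0.11, adjusted p = 0.348), and Col10a1, the collagen of hypertrophic cells, −0.10 (SE 0.28, adjusted p = 0.935). The first 3 of these genes did not overlap between groups and Col10a1 did. Osteoblast markers had lower values as well, in 4 of 5 tested (median −0.60), and the 9 listed summed to 324 to 355 CPM without Phlpp1 and 330 to 695 CPM without Phlpp2, with none at 0. Their part in the result was not tested, and in bulk RNA fewer cells of a type and less RNA per cell cannot be told apart.

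Articular and superficial zone genes also had no edgeR call among 15 tested (5 with an unadjusted p under 0.05; DESeq2 called 1 higher and 1 lower; limma-voom none). Tnc, the matrix glycoprotein tenascin C, measured 533, 541 and 574 CPM without Phlpp1 and 441, 382 and 402 CPM without Phlpp2 (0.43, SE 0.08, adjusted p = 0.0729). Prg4, the joint lubricant lubricin, had the opposite sign, at 80.7, 95.1 and 113 CPM against 173, 151 and 158 CPM (−0.74, SE 0.19, adjusted p = 0.217). Both genes were separate between groups. Matrix proteases and their inhibitors had 22 of 23 values below 0 (median −0.21), none called by edgeR or limma-voom, 6 with an unadjusted p under 0.05, and 1 called by DESeq2. Their summed level was 4627, 4381 and 5224 CPM without Phlpp1 and 5531, 6176 and 5761 CPM without Phlpp2, with no overlap.

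Immune response lists were one-sided. All 35 tested interferon response genes had values below 0, with a median of −0.42, and 9 were lower without overlap (6.77% of all tested genes were). Yet edgeR, DESeq2 and limma-voom called none of them, and 12 had an unadjusted p under 0.05. The 40 listed genes summed to 233, 221 and 260 CPM without Phlpp1, 257, 312 and 287 CPM without Phlpp2, and 291, 301 and 276 CPM in WT, so that the highest Phlpp1 knockout overlapped the lowest Phlpp2 knockout. Irf9, the DNA-binding part of the interferon-activated complex ISGF3, measured 11.04, 11.3 and 11.7 CPM against 13.5, 17.1 and 13.2 CPM (−0.36, SE 0.11, adjusted p = 0.273). Parp14 (−1.16, adjusted p = 0.210) and Gbp2 (−1.15, adjusted p = 0.279) had means of at most 2.85 CPM in either group.

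MHC genes, which load and present peptides, had 15 of 17 values below 0 with a median of −0.33; edgeR, DESeq2 and limma-voom called none, and 6 had an unadjusted p under 0.05. H2-K1, a class I heavy chain, measured 46.1, 55.3 and 54.8 CPM without Phlpp1 and 62.2, 67.2 and 63.5 CPM without Phlpp2 (−0.31, SE 0.08, adjusted p = 0.199). In the inflammatory and NF-kB list 25 of 31 values were below 0 (median −0.36, and −0.22 without Phlpp1 KO 1), none called by edgeR or limma-voom, 11 with an unadjusted p under 0.05 and 2 called by DESeq2. Cxcl14, a chemokine, measured 33.7, 37.6 and 43.0 CPM against 46.6, 58.6 and 60.6 CPM (−0.54, SE 0.11, adjusted p = 0.0755). Ccl5, another chemokine, measured 2.02, 3.15 and 4.39 CPM against 6.29, 7.67 and 7.13 CPM (−1.15, SE 0.26, adjusted p = 0.138). Neither overlapped. Markers of other cells had lower values in part. The 12 macrophage markers summed to 50.8 to 56.0 CPM without Phlpp1 and 53.1 to 68.6 CPM without Phlpp2 (9 of 11 tested were below 0, median −0.26, and −0.07 without Phlpp2 KO 1), and no library had more than 1 of the 12 at 0. The 9 endothelial markers were all below 0, with a median of −0.64 that became −0.16 without Phlpp1 KO 1 and −0.29 without Phlpp2 KO 1, and summed to 69.4 to 98.1 and 86.2 to 105 CPM. Neutrophil markers summed to 26.8 to 112 CPM without Phlpp1 and 104 to 300 CPM without Phlpp2, nearly all of it Lcn2, which chondrocytes also express, and 1 to 6 of the 8 were at 0 in a library. The part of these cells in the immune lists was not tested.

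**Figure D5:**
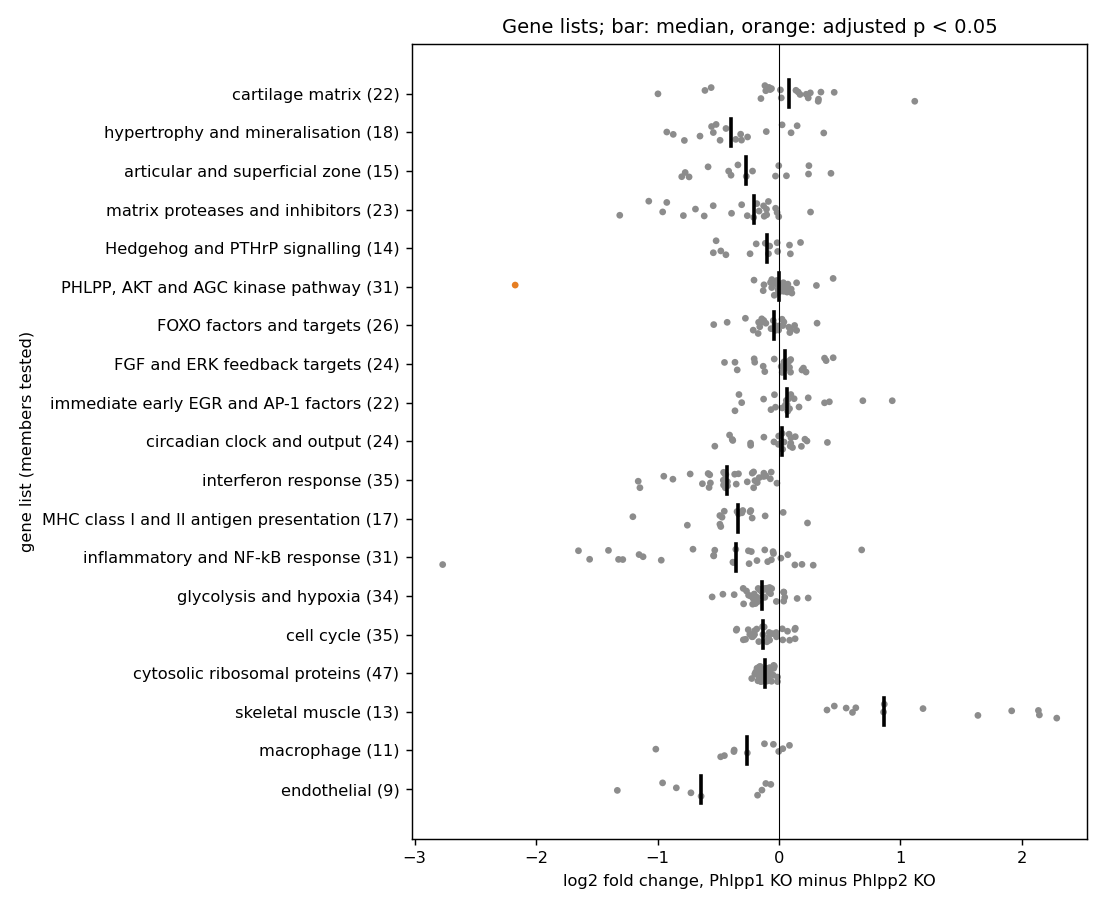
Log2 fold change (Phlpp1 knockout minus Phlpp2 knockout) of the tested members of 19 gene lists; points are genes, bars are list medians, and orange marks adjusted p under 0.05. The interferon response members lie below 0 with a median of −0.42, the skeletal muscle markers above 0 with a median of 0.87, and the PHLPP and AKT list centres on 0 apart from Phlpp1.

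Several medians of the housekeeping and metabolic lists moved with single libraries. All 47 cytosolic ribosomal protein genes had values below 0 with a median of −0.11, none called by edgeR, DESeq2 or limma-voom and 6 with an unadjusted p under 0.05, and all 13 mitochondrially encoded genes did with a median of −0.14, which was −0.07 without Phlpp1 KO 1 (none called by the 3 tools, 1 with an unadjusted p under 0.05). Glycolysis and hypoxia genes were below 0 in 28 of 34 (median −0.14, and −0.21 without Phlpp2 KO 1), with none called by edgeR or limma-voom, 3 with an unadjusted p under 0.05 and 1 called by DESeq2. Pfkfb3, which sets the level of fructose-2,6-bisphosphate, measured 62.0, 46.5 and 64.8 CPM against 70.5, 106 and 76.4 CPM (−0.55, SE 0.16, adjusted p = 0.247). Among 20 ATF4 targets 16 were above 0 (median 0.14, and −0.04 without Phlpp1 KO 1), none called by the 3 tools and 2 with an unadjusted p under 0.05, and Phgdh, the first enzyme of serine synthesis, gave 0.21 (SE 0.06, adjusted p = 0.247). Cell cycle genes were below 0 in 28 of 35 with a median of −0.13, which was −0.26 without Phlpp1 KO 1 and −0.33 without Phlpp2 KO 1, and none was called by any of the 3 tools (1 with an unadjusted p under 0.05). In the mitochondrial calcium uniporter list, Efhd1 was called, and Mcub, which encodes the subunit that limits the channel, measured 7.71, 9.23 and 9.79 CPM against 19.0 CPM on average (SD 4.90, n = 3) (−1.10, SE 0.19, adjusted p = 0.0621). Among the clock genes, Cry1, a repressor, gave 0.21 (SE 0.07, adjusted p = 0.314) and none of 24 was called by any of the 3 tools (4 with an unadjusted p under 0.05). Skeletal muscle markers, 13 of 13 above 0 with a median of 0.87, had 4 with an unadjusted p under 0.05 and no call by the 3 tools; Phlpp1 KO 1, at 13.8 CPM, lay within the range of the Phlpp2 knockouts.

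Leaving out Phlpp2 KO 1 raised the number of called genes from 25 to 207 (97 higher and 110 lower), all 25 included. The added calls given here were named after their values were seen, and the first 4 were higher without Phlpp1. Hbegf, an EGF receptor ligand, measured 177, 225 and 171 CPM without Phlpp1 and 170, 108 and 114 CPM without Phlpp2, and gave 0.79 (SE 0.11, adjusted p = 0.0125) without the first of the latter. Adam12, a metalloprotease, measured 140, 182 and 143 CPM against 169, 77.1 and 83.4 CPM and gave 0.95 (SE 0.13, adjusted p = 0.0149). Odc1, the first enzyme of polyamine synthesis, gave 0.75 (SE 0.11, adjusted p = 0.0143), and Tnc 0.49 (SE 0.09, adjusted p = 0.0259). For Hbegf and Adam12 the left-out library overlapped the Phlpp1 knockouts or came close to them. Added calls that were lower included Mmp13 (−1.13, SE 0.19, adjusted p = 0.0331), Prelp (−1.25, SE 0.20, adjusted p = 0.0275), Cxcl14 (−0.65, SE 0.10, adjusted p = 0.0158) and Id3, an inhibitor of differentiation induced by BMPs (−0.46, SE 0.08, adjusted p = 0.0193). Mgp, the matrix inhibitor of calcification, measured 215, 222 and 240 CPM against 164, 358 and 321 CPM (−0.59 without Phlpp2 KO 1, SE 0.12, adjusted p = 0.0418), with the left-out library below all Phlpp1 knockouts. No label sets this library apart, so all values above keep it.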

How the data were processed

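Bulk RNA sequencing of 12 chondrocyte samples (NEBNext Ultra II RNA libraries, per the labels' protocols) was analysed from the authors' deposited counts, unnormalized whole reads summed for each gene. Per the submitters' processing notes, the authors used bcl2fastq 2.17, STAR 2.5.2b, featureCounts of Subread 1.5.2 and the mm10 build. Not given in the sources used here are the strand setting, the annotation release and how multi-mapping reads were treated. Genes without a symbol (174) held 0.00419% of the counts. Positions came from GENCODE vM21 and promoter windows from RefSeq GRCm38.p6.

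Genes were filtered with filterByExpr over the 4 genotypes (32750 removed), and all 12 libraries, with totals of 21706337 to 33115345 counts, entered 1 genotype model in edgeR 4.0.16 (R 4.3.3): TMM scaling, robust quasi-likelihood test, 8 residual degrees of freedom, Benjamini-Hochberg adjustment over 16565 genes. In no library did tested genes hold under 99.91% of counts. The common biological coefficient of variation was 0.104. SE is the log2 fold change over the square root of F, and SD is over 3 libraries. CPM and count precision cover these libraries only. BLAST+ 2.17.0 found near-identical copies (at least 95% identity over 150 bases). Alternatives were DESeq2 1.42.0, limma-voom (limma 3.58.1), other scalings and filters, the 6 libraries alone, a replicate block, leaving out each library, and, chosen after seeing the data, leaving out both libraries of low Xist. The fit was tested on simulated counts.

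The comparison, its gene lists and the genes named were chosen with earlier results of these data known. The naming rule took Phlpp1 and Phlpp2, up to 15 called genes in each direction whose groups did not overlap and whose higher mean reached 1 CPM, 13 fixed genes, and from each list those of smallest adjusted p reaching 1 CPM. The predicted genes among the calls were named after their values were seen. For lists, counts and medians are given with no set test.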

Additional observations from a re-analysis of the deposited data

How the results depend on the processing

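The direction of all 25 called genes was the same under every alternative in which they were tested. The number of calls, 25, became 177 with DESeq2 (71 higher, 106 lower) and 119 without a filter on low counts (55 higher, 64 lower), and with 1 library left out at a time it ranged from 8 to 207. It was 8 without Phlpp1 KO 2, 11 without Phlpp2 KO 2, 13 without Phlpp1 KO 1, 13 without Phlpp2 KO 3, 38 without Phlpp1 KO 3 and 207 without Phlpp2 KO 1, and it was 11 without both libraries of low Xist. limma-voom gave 28, the other scalings 26 each, a minimum of 1 CPM in 3 samples 24, protein-coding nuclear genes 20 and the 6 libraries alone 17. A replicate block gave 15 calls, all among the 25. Deviations from the group mean gave r of −0.16, −0.04 and −0.05 for libraries of the same number (1, 2 and 3). Libraries of different numbers gave r of −0.167 to 0.189. With 3 libraries in each group, these values cannot decide whether the numbers pair the samples. The 6 calls within 20 Mb of Phlpp1 became 0 within 10 Mb. The cause of these changes was not tested.

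Some uncalled genes turned sign. Without both low Xist libraries Kdm6a was 0.00449, Eif2s3x 0.0637, Kdm5c 0.0422 and Xist 0.0877. With 1 library left out at a time, values ran from −0.347 to 0.000271 for Kdm6a, −0.254 to 0.0591 for Eif2s3x, −0.129 to 0.0376 for Kdm5c, −0.975 to 0.0837 for Xist, −0.748 to 0.0270 for Fabp4, −0.0810 to 0.0252 for Ctsk, −0.370 to 0.109 for Col10a1, −0.296 to 0.106 for Sox9 and −0.0534 to 0.0563 for Dbp. At 25555599 to 30415012 counts a library, genes under about 1 CPM rest on few counts, and values of a gene with 0 counts in a group are not given as folds.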

Other observations

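Gm3739, on chromosome 14 (7293648 to 7315049), had 0 counts in all 3 Phlpp1 knockouts and 12, 8 and 12 counts in the Phlpp2 knockouts, and it was not called (adjusted p = 0.145, edgeR's quasi-likelihood test, Benjamini-Hochberg). In WT it was at most 0.0453 CPM, and in the double knockouts it was 0.451, 0.122 and 0.0295 CPM. A second gene entry named 1700030C10Rik (ENSMUSG00000091071) had 9, 13 and 14 counts in the Phlpp1 knockouts and 0 in all 3 Phlpp2 knockouts (adjusted p = 0.145). Lypd3, a GPI-anchored surface protein, measured 5.62, 4.96 and 4.62 CPM in the Phlpp1 knockouts and 1.41, 3.34 and 2.61 CPM in the Phlpp2 knockouts, without overlap and short of the test (1.04, SE 0.29, adjusted p = 0.239). Its WT level of 9.76 CPM (SD 1.02, n = 3) was above both. Sox11, a SoxC transcription factor, was 24.4 CPM (SD 3.36, n = 3) in the Phlpp1 knockout and 30.8 CPM (SD 0.0434, n = 3) in the Phlpp2 knockout (−0.34, SE 0.11, adjusted p = 0.314).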
